A study of Homo sapiens with 4 samples.

Results

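SEMA3A, 4 further semaphorin genes and 5 receptor genes were examined in 2 human colorectal cancer cell lines after RNA interference against BORIS. The members were all probe sets of the Affymetrix PrimeView array annotated to exactly 1 of the genes SEMA3A, SEMA3B, SEMA3C, SEMA3F, SEMA4B, NRP1, NRP2, PLXNA1, PLXNA2 and PLXNB1, which gave 37 of the 44988 probe sets paired with 1 gene and 10 of 18132 genes. The genes were proposed with results of these arrays in view. SEMA3A was chosen by its measured difference between siRNAs in both lines, and the values that led to the other 9 genes are not recorded, so the members' differences between siRNAs are a description and are not tested. Caco-2 and HCT116, both established lines, were grown in high-glucose DMEM with serum and transfected with siRNA against BORIS or with a negative siRNA, here called control siRNA, and harvested after 3 days, with a lipid reagent named for the BORIS siRNA. Total RNA of each of the 4 combinations of line and siRNA was hybridised to 1 array, so every group held 1 sample. BORIS is the protein of CTCFL, a germline paralog of the insulator protein CTCF. How many siRNAs were used, and their sequences, is not stated in the labels.

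Semaphorins are a family of secreted and membrane-bound proteins first known as guidance cues that repel growing axons. Secreted class 3 semaphorins mostly bind a neuropilin, which has a short cytoplasmic tail, and signal through an associated plexin, whose cytoplasmic part acts on small GTPases and on the cytoskeleton. Membrane-bound semaphorins mostly bind plexins directly. In epithelia and tumours the same proteins take part in cell migration, adhesion and the growth of blood vessels, and neuropilins also bind forms of VEGF.

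Each probe set has a log2 expression value, and differences are given on that scale, so that 1 is 2-fold. The brightest probe set of a gene, by its mean over the 4 arrays, stood for the gene. Expression in a line was called where this probe set lay at or above the array's median over all probe sets, 5.46 to 5.48, with either siRNA. Background was the level below which 95% of 359 olfactory receptor probe sets lay, 4.82 to 5.18 over the arrays. The targeted gene gave no check of the knockdown, because 0 of its 7 CTCFL probe sets reached the median and 1 exceeded background on any array. Of 10 markers of colorectal epithelium, 8 lay above background in Caco-2 and 6 in HCT116. Of the 5 enterocyte markers, 0 did so on either Caco-2 array, 0 in HCT116 with control siRNA and 1 in HCT116 with BORIS siRNA. Of 6 fibroblast markers 0 did so on any array. Neuronal markers above background numbered 3 to 5 of 6 over the arrays, blood cell markers 3 of 6 and endothelial markers 1 of 5. Poly-A spike-in probe sets differed by -0.066 between the Caco-2 arrays and by 0.87 between the HCT116 arrays, BORIS siRNA minus control. Hybridisation controls differed by 0.0055 and 0.34. The 3' minus 5' value of ACTB differed by -0.079 and 0.13, and that of GAPDH by -0.031 and -0.014. Between the lines, poly-A probe sets averaged 6.78 and 6.71 in Caco-2 and 7.57 and 8.44 in HCT116, control first. The part of these in the siRNA and line differences below was not tested.

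SEMA3A, a secreted ligand that causes growth cones to collapse and signals through NRP1 and A-type plexins, was higher with BORIS siRNA in both lines. Its brightest probe set read 7.73 with control siRNA and 8.98 with BORIS siRNA in Caco-2. In HCT116 it read 5.59 with control siRNA and 6.66 with BORIS siRNA. The differences were 1.25 in Caco-2, which is 2.39-fold, and 1.07 in HCT116, which is 2.10-fold. In bulk RNA, fewer cells that make a transcript and less of it per cell cannot be told apart. All 4 values lay above background, and both HCT116 values lay below both Caco-2 values, a separation whose share over all genes was not counted. The second SEMA3A probe set read 6.97 and 8.12 in Caco-2, a difference of 1.15, but 5.67 and 5.83 in HCT116, a difference of 0.15. The 2 probe sets thus lay close together in Caco-2 and apart in HCT116. Their gap of 0.92 in HCT116 was larger than that of 95.9% of the 6276 genes with at least 2 probe sets at or above the median there. As the mean of both probe sets, SEMA3A stood at 0.61 in HCT116, and at 0.87 with 16 added on the linear scale, in each case below 2-fold. Which part of the transcript each probe set reads is not stated in the files used.

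**Figure D1:**
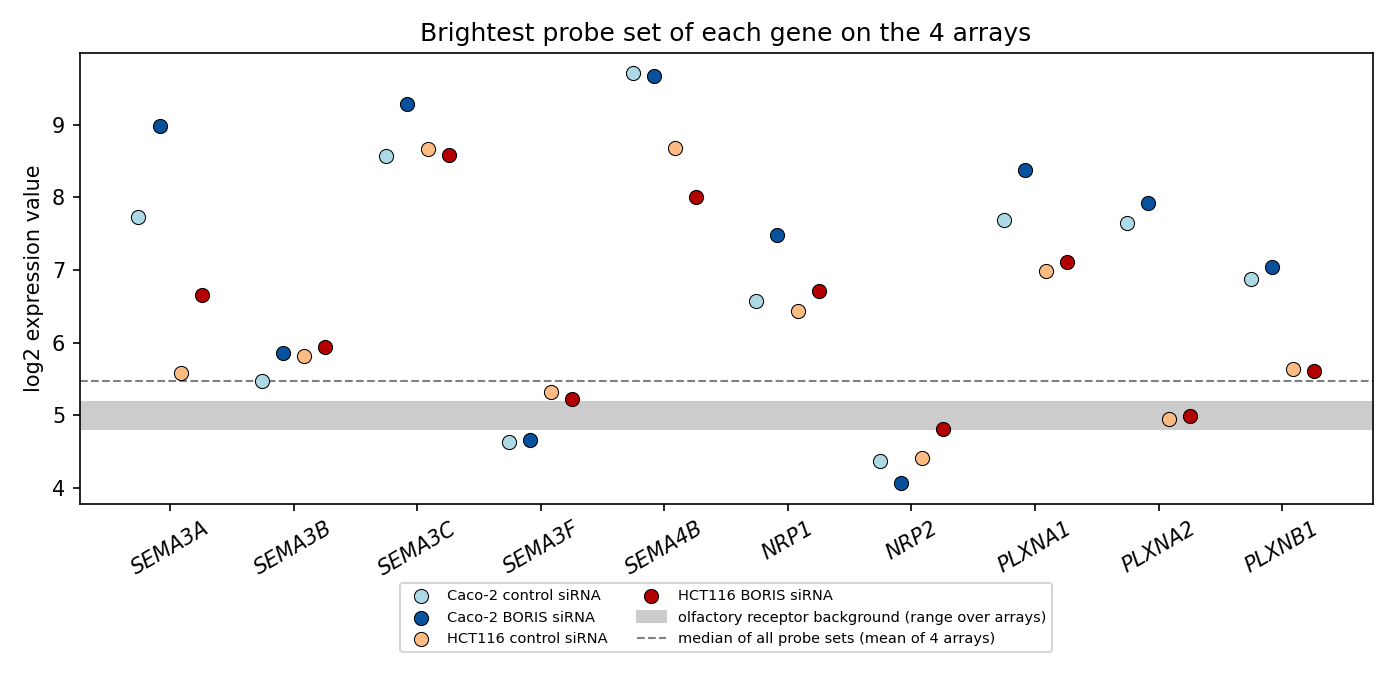
Log2 expression value (vertical axis) of the brightest probe set of each of the 10 genes on the 4 arrays, 1 point per array, with the range of the background level over arrays in grey and the median of all probe sets as a dashed line. SEMA3A was higher with BORIS siRNA in both lines, at 8.98 against 7.73 and 6.66 against 5.59, while all 4 NRP2 values lay below the background of their array.

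Of the other class 3 ligands, SEMA3C, which binds both neuropilins and takes part in heart outflow tract development, was higher with BORIS siRNA in Caco-2 and not in HCT116. Its brightest probe set read 8.57 with control siRNA and 9.28 with BORIS siRNA in Caco-2, a difference of 0.71. In HCT116 it read 8.66 and 8.58, a difference of -0.080. The Caco-2 array with BORIS siRNA was thus the highest of the 4, and the other 3 lay close together. Of the 6 SEMA3C probe sets, 4 lay above background in each line. In Caco-2 all 4 were higher, by 0.71 to 1.03, and in HCT116 all 4 were lower, 3 at -0.15 to -0.080 and 1, which fell below background, at -0.21 or lower. Of all probe sets above background, 53.1% of 26304 were higher in Caco-2 and 45.5% of 25491 in HCT116. Probe sets of 1 gene share the same RNA and are not replicates. The difference between the lines could not be tested with 1 array per group.

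SEMA3B and SEMA3F, which lie near each other on the short arm of chromosome 3 and are known as candidate tumour suppressors, were dim. The brightest SEMA3B probe set read 5.46 and 5.86 in Caco-2 and 5.81 and 5.93 in HCT116, each time with the control value first. Its differences of 0.39 and 0.12 did not extend to the other 2 probe sets. Of these, 1 stood at -0.023 in Caco-2 and -0.24 in HCT116, and the other fell below background with BORIS siRNA, at -0.31 and -0.023 or lower. SEMA3B therefore has no direction that its probe sets share. SEMA3F, a ligand that prefers NRP2, reached the median on no array. Its brightest probe set read 4.62 and 4.65 in Caco-2, below background, and 5.31 and 5.23 in HCT116, just above it. SEMA4B, a membrane-bound class 4 semaphorin, differed little in Caco-2 and was lower in HCT116 by its brightest probe set. It read 9.71 and 9.67 in Caco-2, a difference of -0.037, and 8.68 and 8.00 in HCT116, a difference of -0.68. Its second probe set went the other way in HCT116, from 5.49 to 5.91, a difference of 0.42, so the mean of both was -0.13.

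**Figure D2:**
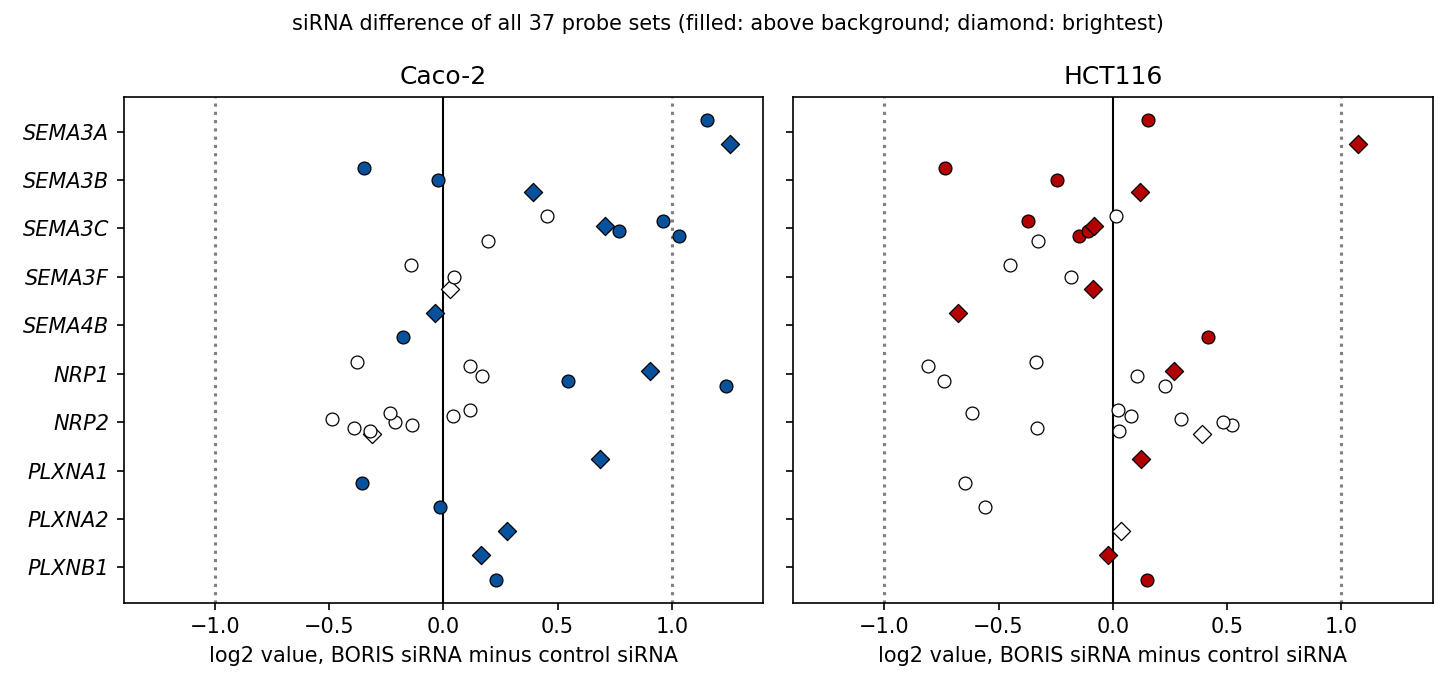
Difference between BORIS and control siRNA on the log2 scale (horizontal axis) for all 37 probe sets by gene, in Caco-2 on the left and HCT116 on the right. Filled symbols are probe sets above background on at least 1 array of the line, diamonds the brightest probe set of each gene, and dotted lines mark 2-fold. In Caco-2 the filled symbols of SEMA3A, SEMA3C and NRP1 all lie at 0.54 or higher, and in HCT116 the filled symbols of SEMA3A lie apart, at 0.15 and 1.07.

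The neuropilins differed in whether they were detected. NRP1, the receptor of SEMA3A and of forms of VEGF, was higher with BORIS siRNA in Caco-2. Its brightest probe set read 6.58 with control siRNA and 7.48 with BORIS siRNA there, a difference of 0.91. In HCT116 it read 6.44 and 6.71, a difference of 0.27. The Caco-2 array with BORIS siRNA again stood highest. Of 6 NRP1 probe sets, 3 lay above background in Caco-2 and all 3 were higher, by 0.54, 0.91 and at least 0.88, while 1 lay above background in HCT116. The brightest NRP1 probe set is of the _s_at kind, which can bind related transcripts. With that kind left out, NRP1 was represented by a probe set that read 4.71, below the background of 5.06, and 5.95 in Caco-2, a difference of at least 0.88. NRP2, the preferred receptor of SEMA3F, was represented by 9 probe sets, and 0 of them exceeded background on any array. Its values ran from 2.87 to 4.81, and no fold is given for it.

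Among the plexins, the signalling chains of these receptor complexes, PLXNA1 pairs with neuropilins in the response to SEMA3A. Its brightest probe set read 7.69 with control siRNA and 8.37 with BORIS siRNA in Caco-2, a difference of 0.69. It read 6.98 and 7.10 in HCT116, a difference of 0.13. The second PLXNA1 probe set was dim, and in Caco-2 it was lower, at 5.33 and 4.97, a difference of -0.36. In HCT116 it lay below background on both arrays. The mean of both probe sets gave 0.16 in Caco-2. PLXNA2, another A-type plexin, read 7.64 and 7.92 in Caco-2, a difference of 0.28, and 4.95 and 4.98 in HCT116, both below background. PLXNB1, the receptor of SEMA4D, read 6.87 and 7.03 in Caco-2 and 5.63 and 5.61 in HCT116. Its second probe set differed by 0.23 and 0.15. The differences of the brightest, 0.16 and -0.019, were no larger than the spread between probe sets of 1 gene, which had a pooled SD of 0.163 in Caco-2 and 0.231 in HCT116. That spread covers differences between probe sets and not between cultures.

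Promoter sequences from RefSeq (GRCh38.p14, 250 bases before to 50 after a gene's start) are shown for SEMA3C and PLXNA1, which were both higher with BORIS siRNA in Caco-2 by their brightest probe sets, and for PLXNA2, the gene with the widest gap between the lines. Of the 10 genes, 8 matched an entry, and SEMA3A and NRP1 did not. Capitals mark matches on either strand to CCCTC, the repeat that gave CTCF its name, or to AGGNGGC, part of the CTCF motif, which can overlap each other. CTCF and BORIS have similar zinc fingers. The sequences are written 5′ to 3′ on the strand of the gene.
SEMA3C, chr7:80919002-80919301, minus strand: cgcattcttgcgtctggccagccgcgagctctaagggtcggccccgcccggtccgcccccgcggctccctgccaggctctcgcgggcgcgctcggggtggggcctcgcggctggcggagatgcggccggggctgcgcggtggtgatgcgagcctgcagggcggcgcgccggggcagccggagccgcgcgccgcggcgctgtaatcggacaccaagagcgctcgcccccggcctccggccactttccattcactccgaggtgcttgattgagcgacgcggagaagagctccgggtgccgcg
SEMA3C, chr7:80922340-80922639, minus strand: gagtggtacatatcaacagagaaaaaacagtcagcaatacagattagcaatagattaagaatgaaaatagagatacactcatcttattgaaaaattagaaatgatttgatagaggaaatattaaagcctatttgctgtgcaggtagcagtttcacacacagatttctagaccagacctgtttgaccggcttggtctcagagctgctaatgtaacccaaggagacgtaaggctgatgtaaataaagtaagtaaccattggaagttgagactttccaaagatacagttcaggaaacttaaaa
PLXNA1, chr3:126982865-126983164, plus strand: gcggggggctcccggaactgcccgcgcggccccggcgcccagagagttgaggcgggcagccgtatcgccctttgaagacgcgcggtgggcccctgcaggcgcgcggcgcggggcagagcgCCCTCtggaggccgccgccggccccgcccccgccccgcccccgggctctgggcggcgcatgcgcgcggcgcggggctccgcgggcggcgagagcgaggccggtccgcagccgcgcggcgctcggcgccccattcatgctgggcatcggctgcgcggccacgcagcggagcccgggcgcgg
PLXNA2, chr1:208244335-208244634, minus strand: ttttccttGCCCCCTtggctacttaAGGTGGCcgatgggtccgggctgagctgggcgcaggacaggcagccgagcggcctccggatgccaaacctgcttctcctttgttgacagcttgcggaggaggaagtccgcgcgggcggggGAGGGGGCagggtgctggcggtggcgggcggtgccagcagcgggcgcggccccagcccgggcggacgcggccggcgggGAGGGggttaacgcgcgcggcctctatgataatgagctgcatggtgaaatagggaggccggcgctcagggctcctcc
Both SEMA3C windows held 0 matches to either motif, the PLXNA1 window 1 match to CCCTC and 0 to AGGNGGC, and the PLXNA2 window 2 to CCCTC and 3 to AGGNGGC. Over all 35116 windows of the same length, 71.2% held CCCTC and 35.9% held AGGNGGC. These are matches of letters in short windows, and no binding was measured.

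Set against all genes, the members ran from the middle to the upper end of the distribution in Caco-2. Of the 10 members 8 were expressed there. By their brightest probe sets 7 of these were higher with BORIS siRNA and 1 lower, where 50.5% of 10389 expressed genes were higher. Of the members' 20 probe sets above background in Caco-2, 14 were higher and 6 lower, beside 53.1% higher of all such probe sets. Only SEMA3A passed 2-fold by its brightest probe set, where 0.404% of expressed genes were 2-fold or more higher and 0.0481% lower. By the brightest probe sets, SEMA3A lay above 99.9% of expressed genes, NRP1 above 99.4%, SEMA3C above 98.6% and PLXNA1 above 98.5%. SEMA4B lay above 42.2% and was the 1 expressed member below 0. The median over the 8 members was 0.54, beside 0.0026 for all expressed genes. Without _x_at and _s_at probe sets, the unraised NRP1 value of 1.24 also exceeded 2-fold, but against background it is at least 0.88, below 2-fold. In HCT116, 7 members were expressed, 4 of them higher and 3 lower by their brightest probe sets, where 44.5% of 10631 expressed genes were higher. Of the members' 16 probe sets above background there, 7 were higher and 9 lower, beside 45.5% higher of all such probe sets. SEMA3A was again the only one past 2-fold, where 0.583% of genes were higher and 1.45% lower by that much, and it lay above 99.6% of expressed genes. The median of the members was 0.12, beside -0.048 for all expressed genes. The members were proposed with this contrast in view, so these positions describe the choice.

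**Figure D3:**
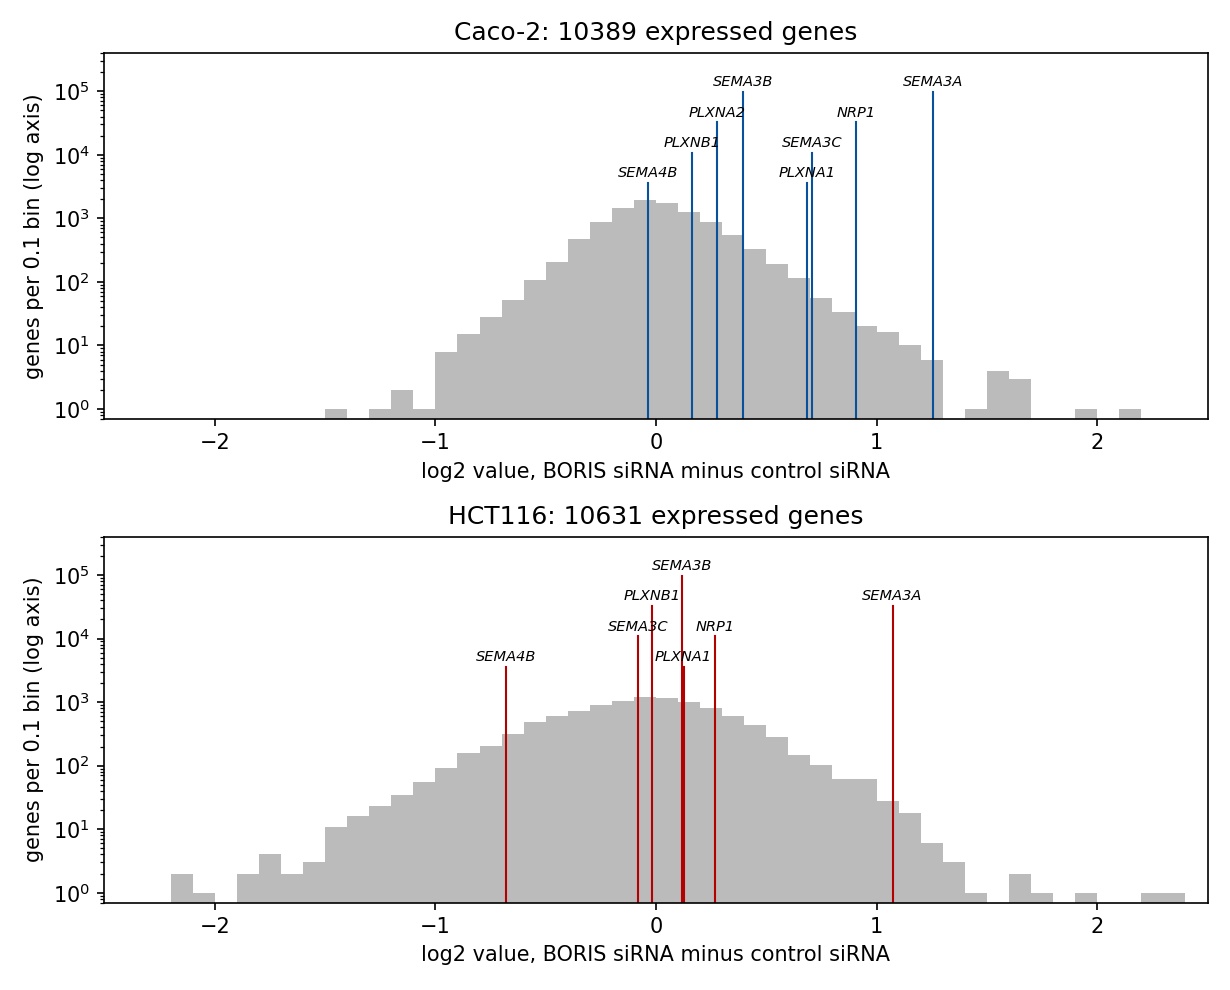
Differences between BORIS and control siRNA on the log2 scale (horizontal axis) for all expressed genes, as the number of genes per bin on a log axis (grey), with the expressed members marked by vertical lines, in Caco-2 above and HCT116 below. The members reach from -0.037 to 1.25 in Caco-2 and from -0.68 to 1.07 in HCT116, with SEMA3A highest of them in both.

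An effect of siRNA shared by both lines was fitted with limma on the 4 arrays, with cell line as a block and the lines standing in for replicates. Of 11165 genes 0 had an adjusted p under 0.05, which is 0% of the genes tested, and 670 had an unadjusted p under 0.05. The fitted shared differences of the members ran from -0.36 ± 0.21 (SE) for SEMA4B and 0.072 ± 0.20 for PLXNB1 through 0.41 ± 0.21 for PLXNA1 and 0.59 ± 0.22 for NRP1 to 1.16 ± 0.18 for SEMA3A. After quantile normalization 86 genes and after a loess correction 57 genes passed. SEMA3A was chosen for this contrast, so the members' fitted sizes are given without a p.

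The question of how the lines themselves differ in these genes was put to the limma fit, adjusted for siRNA, with 2 arrays per line. The members were proposed with results of these same arrays in view. Whether line differences guided that choice is not recorded, so the members' p-values below are a description. Of the 10 members 8 were tested, and 5 of these 8 were lower in HCT116 than in Caco-2 and 0 higher at a limma adjusted p under 0.05, with PLXNA2 among the 5 though it was expressed in Caco-2 alone. Over all 11165 genes tested, 19.8% were lower and 19.4% higher in HCT116 by the same rule. SEMA3A averaged 8.35 in Caco-2 and 6.12 in HCT116, a difference of -2.23 ± 0.18 (SE, limma adjusted p 0.00024), which is 4.69-fold. Its second probe set gave -1.79. The difference was -2.14 on the control arrays alone and -2.32 on the BORIS siRNA arrays alone.

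PLXNA2 had the widest gap of the members. It averaged 7.78 in Caco-2 and lay below background in HCT116, so that it was at least 6.24-fold lower there against the background level, a log2 difference of -2.64. It entered the fit through Caco-2 alone, where it was high, so no p is given for it. The 2 Caco-2 values lay above the 2 HCT116 values, which were both below background. The share of all genes with such a separation was not counted. PLXNB1 differed by -1.33 ± 0.20 (limma adjusted p 0.0029), and its second probe set by -1.23. PLXNA1 differed by -0.99 ± 0.21 (limma adjusted p 0.011), by -0.71 on the control arrays and by -1.27 on the BORIS siRNA arrays. SEMA4B averaged 9.69 in Caco-2 and 8.34 in HCT116, a difference of -1.35 ± 0.21 (limma adjusted p 0.0037), and both of its probe sets gave -1.35. SEMA3A, SEMA4B, PLXNA1 and PLXNB1 were also called under each of the 8 other settings that were fitted. So was PLXNA2, whose call is not read as a test.

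SEMA3C, NRP1 and SEMA3B did not pass that test. SEMA3C differed by -0.31 ± 0.23 (limma adjusted p 0.34), and its sign turned between siRNAs, at 0.087 on the control arrays and -0.70 on the BORIS siRNA arrays. NRP1 differed by -0.46 ± 0.22 (limma adjusted p 0.15), at -0.14 on the control arrays and -0.78 on the BORIS siRNA arrays. For both genes the lines lay close together with control siRNA and further apart with BORIS siRNA. SEMA3B differed by 0.21 ± 0.22 (limma adjusted p 0.48). SEMA3F, which was not tested because it reached the median on no array, was higher in HCT116 by at least 0.33 against the Caco-2 background. NRP2 lay below background in both lines.

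**Figure D4:**
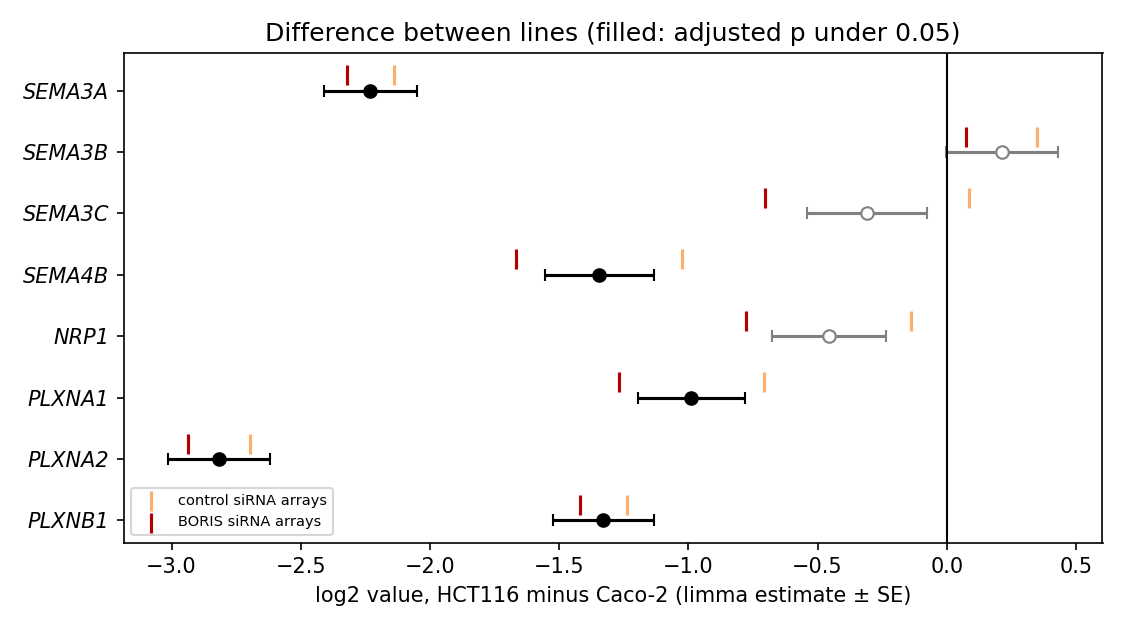
Difference between HCT116 and Caco-2 on the log2 scale (horizontal axis) for the 8 members tested, as the limma estimate with its standard error (circles, filled where the adjusted p was under 0.05), with ticks for the control siRNA arrays alone and the BORIS siRNA arrays alone. SEMA3A at -2.23 and PLXNA2 at -2.82 lie furthest to the left, and the ticks of SEMA3C lie on both sides of 0. PLXNA2 is drawn at its unraised value. It lay below background in HCT116, where its difference against background is -2.64 or lower, and its fill is not read as a test.

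The other genes of the pathway were taken from lists drawn up from knowledge of the pathway. Of all expressed genes, 50.5% were higher with BORIS siRNA in Caco-2 and 44.5% in HCT116. At 2-fold or more, 0.404% were higher and 0.0481% lower in Caco-2, and 0.583% higher and 1.45% lower in HCT116. The counts of the lists are to be read beside these shares. Of 15 other semaphorins, 8 were expressed in Caco-2, 3 higher and 5 lower with BORIS siRNA (median -0.12), and 8 in HCT116, 2 higher and 6 lower (median -0.33), with 0 past 2-fold in either line. SEMA3E, a class 3 ligand that signals through PLXND1 without a neuropilin, was higher by 0.66 in Caco-2, at 5.63 and 6.28, and below background in HCT116. SEMA3G was lower by -0.81 in Caco-2 and higher by 0.41 in HCT116. The class 3 ligands therefore did not share 1 direction in Caco-2. SEMA4F at -0.74 and SEMA7A at -0.58 were lower in HCT116.

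All 4 expressed plexins outside the members were lower in HCT116 (median -0.46), and in Caco-2 they had a median of -0.019. PLXND1 was past 2-fold in HCT116 by its brightest probe set, at 6.78 with control and 5.30 with BORIS siRNA, a difference of -1.49. Its other probe set gave -0.34. PLXNB2 stood at 0.0022 in Caco-2 and at -0.60 in HCT116. Co-receptors had 3 of 3 expressed genes higher in Caco-2 (median 0.29) and 4 of 4 lower in HCT116 (median -0.34). Over all expressed genes 50.5% were higher in Caco-2 and 44.5% in HCT116, and lists this small were not tested against these shares. Among them, L1CAM, an adhesion molecule that associates with NRP1, was below background in Caco-2 and lower by -0.76 in HCT116, and the receptor kinase gene MET stood at 0.10 and -0.48.

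VEGF ligands and receptors that share neuropilins had medians of -0.090 over 3 expressed genes in Caco-2 and -0.61 over 4 in HCT116. VEGFA was higher by 0.41 in Caco-2 and lower by -0.58 in HCT116, and VEGFB stood at -0.21 and -0.87. Intracellular signalling genes had medians of 0.021 over 24 genes and -0.14 over 27, with 1 past 2-fold, DPYSL3, a member of the CRMP family that relays semaphorin signals to microtubules, at -1.17 in HCT116 and below background in Caco-2. Of 6 protease genes, which include the convertases that cleave class 3 semaphorins, 4 were higher in Caco-2 (median 0.089) and 5 lower in HCT116 (median -0.35), with PCSK5 at -0.23 and -0.64. Netrin, ephrin, Slit and related guidance genes had medians of 0.23 over 18 genes and -0.31 over 17, with NTN4, a netrin, past 2-fold in Caco-2 at 6.80 and 7.83 by its brightest probe set, while its other one differed by 0.71. In HCT116 the median of each of the 7 lists lay below 0, where that of all expressed genes was -0.048. Markers of colorectal epithelium also had a median of -0.27 there, with 4 of 6 expressed genes lower, while blood cell markers had 0.23 over 3 genes, neuronal markers 0.030 over 5 and the 1 expressed endothelial marker 0.42. Their part in these medians was not tested.

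**Figure D5:**
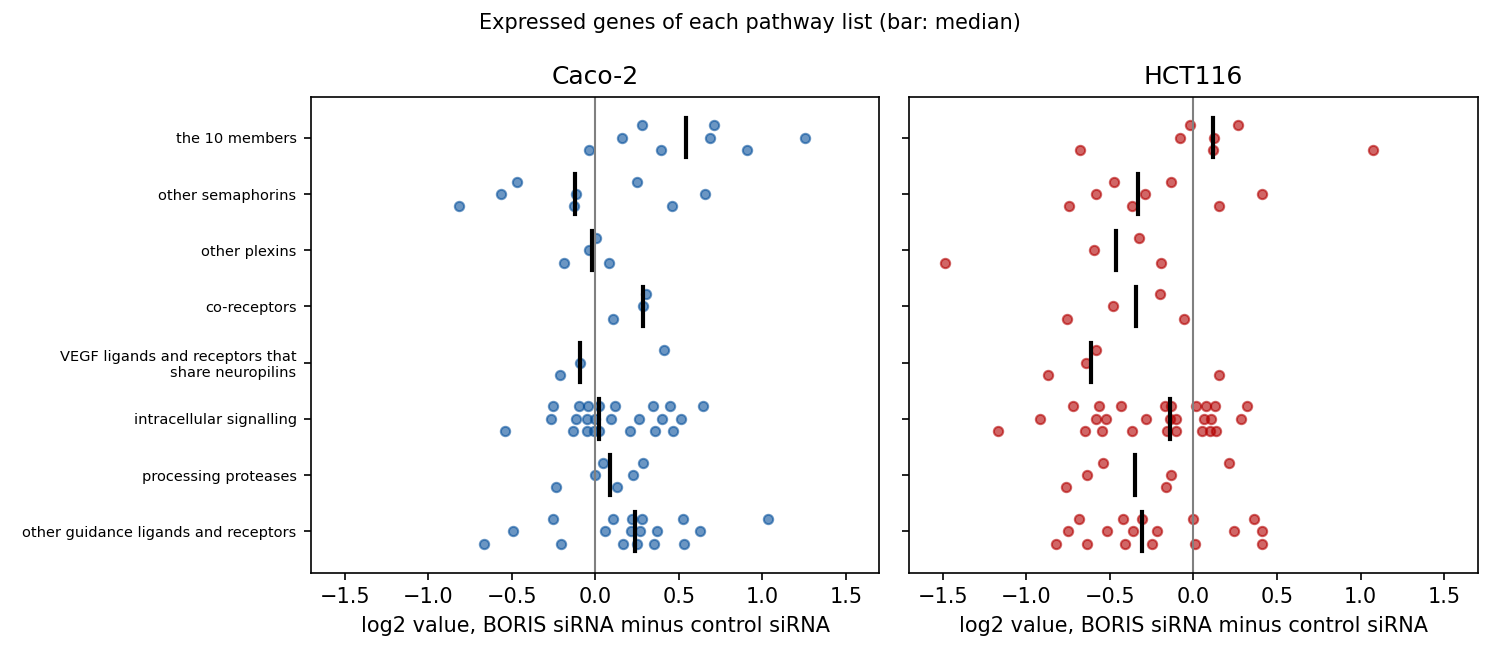
Difference between BORIS and control siRNA on the log2 scale (horizontal axis) for the expressed genes of the 10 members and of 7 pathway lists, 1 point per gene and a bar at the median, in Caco-2 on the left and HCT116 on the right. In HCT116 the medians of the lists lie between -0.61 and -0.14, and in Caco-2 between -0.12 and 0.29.

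Between the lines, the signalling gene TIAM1, a guanine nucleotide exchange factor for Rac, was below background in Caco-2 and higher in HCT116 by at least 3.84. FES, a kinase linked to semaphorin signalling, was higher in HCT116 by 2.94 ± 0.22 (limma adjusted p 0.00017). L1CAM was higher there by at least 1.62, while SEMA3E was lower by at least 0.82 and PLXND1 by -1.75 ± 0.34 (limma adjusted p 0.0081). Of 27 signalling genes tested, 5 were higher and 5 lower in HCT116 at a limma adjusted p under 0.05, close to the 19.4% and 19.8% of all genes tested. Of 10 other semaphorins 2 were higher and 1 lower. These counts include genes that entered the fit through a single line, where they were high. TIAM1, DPYSL3 and SEMA6A entered through HCT116 and SEMA3E through Caco-2, and their calls are not read as tests.

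By the distance between values centred on each gene's mean over the 4 arrays, the 5 expressed genes most like SEMA3A were the monocarboxylate transporter gene SLC16A4 (0.45), the zinc finger gene ZNF93 (0.46), the transporter gene SLC16A12 (0.49), the zinc finger gene ZNF232 (0.59) and the histone gene H2AC8 (0.61). Of these, only ZNF232 lay above background in HCT116, with 9.00 and 9.50 in Caco-2 and 6.78 and 7.57 in HCT116. The distances of the others rest on HCT116 values below background. In gene order on the chromosome, SEMA3A lies between SEMA3E and SEMA3D among protein-coding genes on the array. SEMA3D lay below background on all 4 arrays, as did PCLO and GRM3, the next genes beyond SEMA3E and SEMA3D. SEMA3C lies between CD36 and HGF, both below background on all 4 arrays.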

How the data were processed

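Total RNA from 4 samples, 1 per combination of cell line and siRNA, was measured on PrimeView arrays with biotin-labelled cRNA made by a 3' in vitro transcription kit, per the labels' protocols. The authors deposited 1 table of log2 values, a scale read from the values' range and nearly equal medians. Their background correction and normalization are not given in the sources used. Probe sets were named through the platform annotation, with symbols updated through Entrez IDs from a RefSeq table (GRCh38.p14), which changed 0 of them.

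The fits used limma 3.58.1 in R 4.3.3 (lmFit, eBayes with trend), with Benjamini-Hochberg adjustment. They covered all 11165 genes at or above the array median on at least 1 array. Only the line difference was tried on simulated data, with independent noise of the fitted size. That noise holds no spread between cultures, so the simulation is no check of the p-values given here. The fits have 1 residual degree of freedom, beside 5.49 prior degrees of freedom drawn from all genes tested. With 1 array per group, the residual is the disagreement between the lines in the siRNA difference. P-values and SEs therefore hold no spread between replicate cultures, and an SE rests largely on other genes. The number of samples, 4, limits the precision. For differences given as at least a size, values below background were raised to it. The main fits, counts, medians, positions among all genes and distances to SEMA3A used the deposited values, also where these lay below background. The rule named the members, the genes of each list with the largest differences, from which examples were drawn, and the 5 genes nearest to SEMA3A. Members, lists and rules were chosen with earlier results of these data known. Probe sets of PLXND1 and the chromosomal neighbours of SEMA3A and SEMA3C were added after values were seen. Alternatives changed the probe sets used, the normalization, the filter on dim probe sets, the offset and the variance model.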

Additional observations from a re-analysis of the deposited data

Results flagged for a closer look

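SEMA3C was higher with BORIS siRNA in Caco-2, by 0.71, and stood at -0.080 in HCT116. The median of all expressed genes in HCT116 was -0.048. The SEMA3C difference in Caco-2 minus that in HCT116 was 0.79. PLXNB1 had opposite signs too by its brightest probe set, with 0.18 between the lines, while its second probe set was higher in both, by 0.23 and 0.15. Both are listed because their only Caco-2 pair and their only HCT116 pair had opposite signs. In HCT116 both differences were smaller in size than the pooled SD of 0.231 between probe sets of 1 gene. The share of all genes with opposite signs was not counted, and neither difference between the lines was tested.

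Poly-A spike-in probe sets, which are in none of the gene comparisons above, differed by 0.87 between the HCT116 arrays, the value under BORIS siRNA being the higher. Hybridisation controls differed by 0.34 between the same arrays, in the same direction.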

How the results depend on the processing

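Beyond the fits above, which have cell line and siRNA as terms, no paired analysis was possible, because each group held 1 array. No member was past 2-fold in HCT116 (0 against 1) when a gene's probe sets were averaged, where SEMA3A stood at 0.61, or with 16 added on the linear scale, where it stood at 0.87. Without _x_at and _s_at probe sets, 2 members exceeded 2-fold in Caco-2, the second being NRP1, which is at least 0.88 higher once its control value is raised to background. Genes past the shared siRNA test numbered 86 after quantile normalization (47 higher, 39 lower) and 57 after the loess correction (32 higher, 25 lower), against 0 as deposited; the prior degrees of freedom were 178 and 55.7 against 5.49, and the cause was not tested. The shared difference changed sign with averaged probe sets for SEMA3B (-0.14), PLXNA1 (-0.049) and PLXNA2 (-0.065), and the line difference of SEMA3C turned on the control arrays alone (0.087). The 5 members past the line test numbered 5 under each of the 8 other fits, PLXNA2 included, whose call is not read as a test. With no replicate arrays, no array could be left out with a test.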
